A study of Mus musculus with 7 samples.

Results

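The genes described here encode the proteins of the cytosolic ribosome, followed in whole shoulder joints of mice with and without Tenascin C (Tnc), a glycoprotein of the extracellular matrix. Members were all genes whose symbol is that of a ribosomal protein of the small (Rps) or large (Rpl) subunit, including the P stalk genes Rplp0, Rplp1 and Rplp2 and the small subunit gene Rpsa; symbols ending in -ps and a number, given to pseudogenes, and ribosomal S6 kinases were left out. They also had to be listed in the files of all 7 libraries and to have a mean of at least 5 CPM (counts per M gene counts, M for mega) over them. Of 56854 gene identifiers in all files, 89 matched by name and 77 passed the level threshold: 30 of the small subunit, 44 of the large subunit and 3 of the P stalk. The members were thus chosen by name and selected on their mean level over all libraries, not on the difference between genotypes, but the group was proposed with earlier results of these data known, so no test was made of the list as a whole.

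The study asked how the loss of Tnc affects healing of the shoulder after repair of the supraspinatus tendon, one of the rotator cuff tendons that hold the joint. Joints were taken at 2 weeks from wild-type mice (3 libraries) and from mice of the genotype Tnc-/- (4 libraries). All of them had the repair, on the left side, so there is no unoperated group, and sex, age and strain are not given in the sources used here. Libraries were made from poly(A) RNA of the whole joint, so each library is a mixture of the muscle, tendon, bone, marrow and other cells of the joint. Nothing in the labels says that the libraries came from separate animals, so the p-values measure only the spread between these libraries.

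A ribosome is built from a small subunit, which holds the messenger RNA and reads its codons, and a large subunit, which forms the peptide bonds. Each subunit consists of ribosomal RNA and a set of proteins that are needed in about equal numbers, and the genes of these proteins are among the most highly transcribed in any growing cell. Their messenger RNAs start with a run of C and T letters, the 5′ terminal oligopyrimidine tract, through which the kinase mTOR and the RNA-binding protein Larp1 control their translation together.

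To show the sequence that these genes share apart from their names, the region around the annotated start of transcription was searched in RefSeq (assembly GRCm38.p6), which held a window for 57 of the 77 members. A run of at least 8 letters made up of C and T only, on the gene's own strand and from 50 bases before to 50 bases after the start, was found in 48 of the 57 (84.2%), against 39.3% of all 27025 genes with a window. The word CCGGAAG, a form of the ETS family binding motif, was present on either strand of the full window, from 250 bases before to 50 after the start, in 23 of 57 members (40.4%) and in 9.93% of all genes. A match of letters is a description of the sequence and does not show a site in use. The windows below hold 30 bases each around the longest run near the start, in capitals, for the called genes with a window (Rpl36a, Rpl23, Rpl28, Rpl9 and Rps19, described further on), the stalk gene Rplp0, and Rps6 and Rpl4 as abundant members of each subunit.
Rpl36a: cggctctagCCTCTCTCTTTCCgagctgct
Rpl23: gagtgggcggggCCTCCCgttcatatccca
Rpl28: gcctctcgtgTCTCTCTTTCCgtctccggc
Rpl9: acgaaagacgTTCTCTCTTTgccccatcta
Rps19: accccgtcgTTCCCTTTCCCCTggctggca
Rplp0: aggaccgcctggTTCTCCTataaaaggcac
Rps6: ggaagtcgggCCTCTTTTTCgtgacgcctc
Rpl4: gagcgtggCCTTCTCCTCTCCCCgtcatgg
On GRCm38.p6 these lie at chrX:134585672-134585701 on the plus strand for Rpl36a, chr11:97782404-97782433 on the minus strand for Rpl23, chr7:4792952-4792981 on the plus strand for Rpl28 and chr5:65391383-65391412 on the minus strand for Rpl9. Those of the remaining genes are chr7:24884622-24884651 on the plus strand for Rps19, chr5:115559466-115559495 on the plus strand for Rplp0, chr4:86857349-86857378 on the minus strand for Rps6 and chr9:64173405-64173434 on the plus strand for Rpl4. The run was 13 letters long in Rpl36a and in Rps19 and 15 in Rpl4, but only 6 in Rpl23 and 7 in Rplp0, which thus fell short of the minimum of 8. Counted from 1 at the annotated start, the runs began at 28 in Rpl36a, 19 in Rpl23, 30 in Rpl9, 12 in Rplp0 and 27 in Rpl4, just before the start in Rpl28 (-3) and Rps6 (-1), and at -45 in Rps19, so they need not be the tract at the end of the message. Of the 6 called members, 5 had a window; 4 of these held a run and 0 held the word CCGGAAG.

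The libraries held 13464057 to 18503833 gene counts in wild type and 19250322 to 28191101 in Tnc-/-. Tnc itself had levels of 437, 292 and 327 CPM in the wild-type libraries 1 to 3 and of 33.4, 38.9, 39.9 and 55.0 CPM in Tnc-/- libraries 1 to 4, which fits the labels. The files of the genotypes differed in form, with 126 identifiers listed in the wild-type files only and 87 in the Tnc-/- files only. Rows naming no gene were present in the Tnc-/- files only. Separate counting runs would give such files, though no label names a run. An effect of such a run cannot be told apart from one of genotype. Wild-type libraries 2 and 3 stood apart from the rest. Olfactory, vomeronasal, bitter taste and trace amine receptor genes, which should be silent in a joint, summed to 1564 and 1114 plain CPM in them. The sum was 89.8 in wild-type library 1 and 33.4 to 41.5 in Tnc-/-. Every wild-type library was above every Tnc-/- library, so a fit with this background as a covariate cannot well separate it from genotype. For this reason the calls of members and gene lists by edgeR are also given without wild-type libraries 2 and 3.

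Messenger RNA of the 77 members took up 3.52, 2.68 and 2.46% of the gene counts in wild-type libraries 1 to 3 and 3.48, 2.96, 2.94 and 3.36% in Tnc-/- libraries 1 to 4. The means were 2.89% ± 0.56 (SD, n = 3) and 3.18% ± 0.28 (SD, n = 4), and the groups overlapped, since wild-type library 1 held the highest share of all. Rn18s-rs5, a listed copy of the 18S ribosomal RNA, took up 0.626, 0.333 and 0.260% of the same counts in wild type and 4.72, 4.55, 6.36 and 4.67% in Tnc-/-, with no overlap; its part in the shares was not tested. Such a share cannot tell more cells with many ribosomes from more messenger RNA per cell. Without wild-type libraries 2 and 3 the difference changed sign, from 0.29 percentage points higher in Tnc-/- to 0.34 points lower.

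The members moved together from library to library, with wild-type library 1 near the Tnc-/- libraries and wild-type libraries 2 and 3 below them. On the log2 scale, the median distance of the 77 genes from their own mean over all libraries was 0.20, -0.35 and -0.48 in wild-type libraries 1 to 3 and 0.25, 0.08, 0.07 and 0.26 in Tnc-/- libraries 1 to 4. Wild-type library 3 was the lowest of all libraries for 53 members and wild-type library 2 for 24, so that no other library was the lowest for any member. Wild-type library 1 was the highest of all for 21 members and stood above every Tnc-/- library for 22 (28.6%, against 30.9% of all genes tested), within their range for 34 and below them for 21 (27.3%, against 31.9%). Wild-type library 2 was below every Tnc-/- library for 70 members (90.9%, against 42.2% of all genes tested) and wild-type library 3 for 75 (97.4%, against 40.4%). Spread within a genotype followed: the median coefficient of variation of a member was 28.9% over the wild-type libraries and 8.80% over the Tnc-/- libraries.

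**Figure D1:**
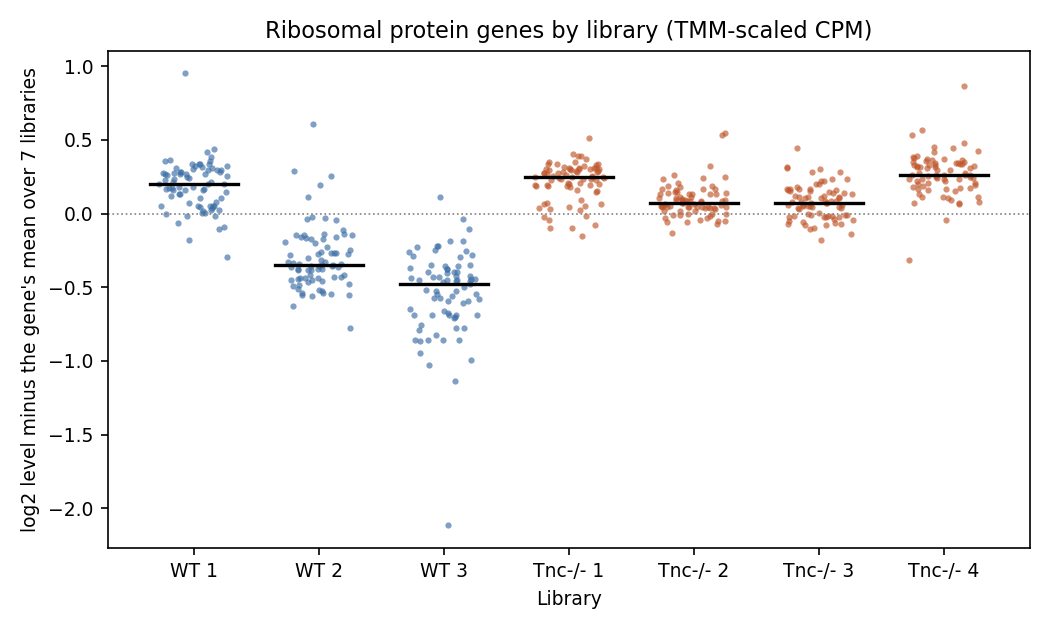
Distance of each of the 77 ribosomal protein genes (points) from its own mean over the 7 libraries, in log2 units on TMM-scaled CPM, by library, with the median of each library as a bar. Medians of wild-type libraries 2 and 3 lie at -0.35 and -0.48, and that of wild-type library 1, at 0.20, lies among the Tnc-/- medians of 0.07 to 0.26.

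Between genotypes, 6 of the 77 members were called higher in Tnc-/- and none lower, by edgeR's quasi-likelihood test with Benjamini-Hochberg adjustment over all 17791 genes tested at a threshold of 0.05. That is 7.79% of the members, against a background of 10.3% of all genes called higher and 18.7% called lower (29.0% in either direction), so the share called was not above that of other genes. At an unadjusted p under 0.05 there were 21 members (27.3%), against 42.3% of all genes. The 77 fold changes nonetheless lay mostly on one side: 74 were above 0 and 3 below, with a median of 0.34 on the log2 scale (interquartile range 0.24 to 0.43), while the median of all genes tested was 0.00. Genes that span at most 10 kb on the chromosome, as 73 of the members do, had a median of 0.29 in the same fit. All 4 Tnc-/- libraries were above all 3 wild-type libraries for 19 members (24.7%, against 17.7% of all genes), and for none were they all below (17.4% of all genes).

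These counts depended on single libraries, and most of all on wild-type library 1. Without it, edgeR called 66 of 77 members higher and none lower, against 24.3% of all genes called higher, and the median rose to 0.70. Without wild-type library 2 the test called 1 member (5.54% of all genes called higher), the small subunit paralog Rps27l, which is not among the 6 (named after its value was seen). Without wild-type library 3 (background 3.27%) or without Tnc-/- library 2 (5.73%) it called 1 member, Rpl21 both times. Without Tnc-/- library 1, 3 or 4 it called none, against 4.82, 3.91 and 5.14% of all genes called higher, while 9, 13 and 9 members (11.7, 16.9 and 11.7%) had an unadjusted p under 0.05, against 35.5, 34.3 and 35.7% of all genes. When wild-type libraries 2 and 3 were both left out, so that a lone wild-type library was assumed to vary like the Tnc-/- libraries, no member was called by edgeR (background 2.53% called higher), 3 had an unadjusted p under 0.05 (3.90%, against 24.7% of all genes), and the median was -0.059. The log2 fold changes of the 6 called members were then 0.51 for Rpl21, 0.44 for Rpl28, 0.26 for Rpl23, 0.23 for Rps19, 0.21 for Rpl9 and 0.20 for Rpl36a, each below its value with all libraries.

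**Figure D2:**
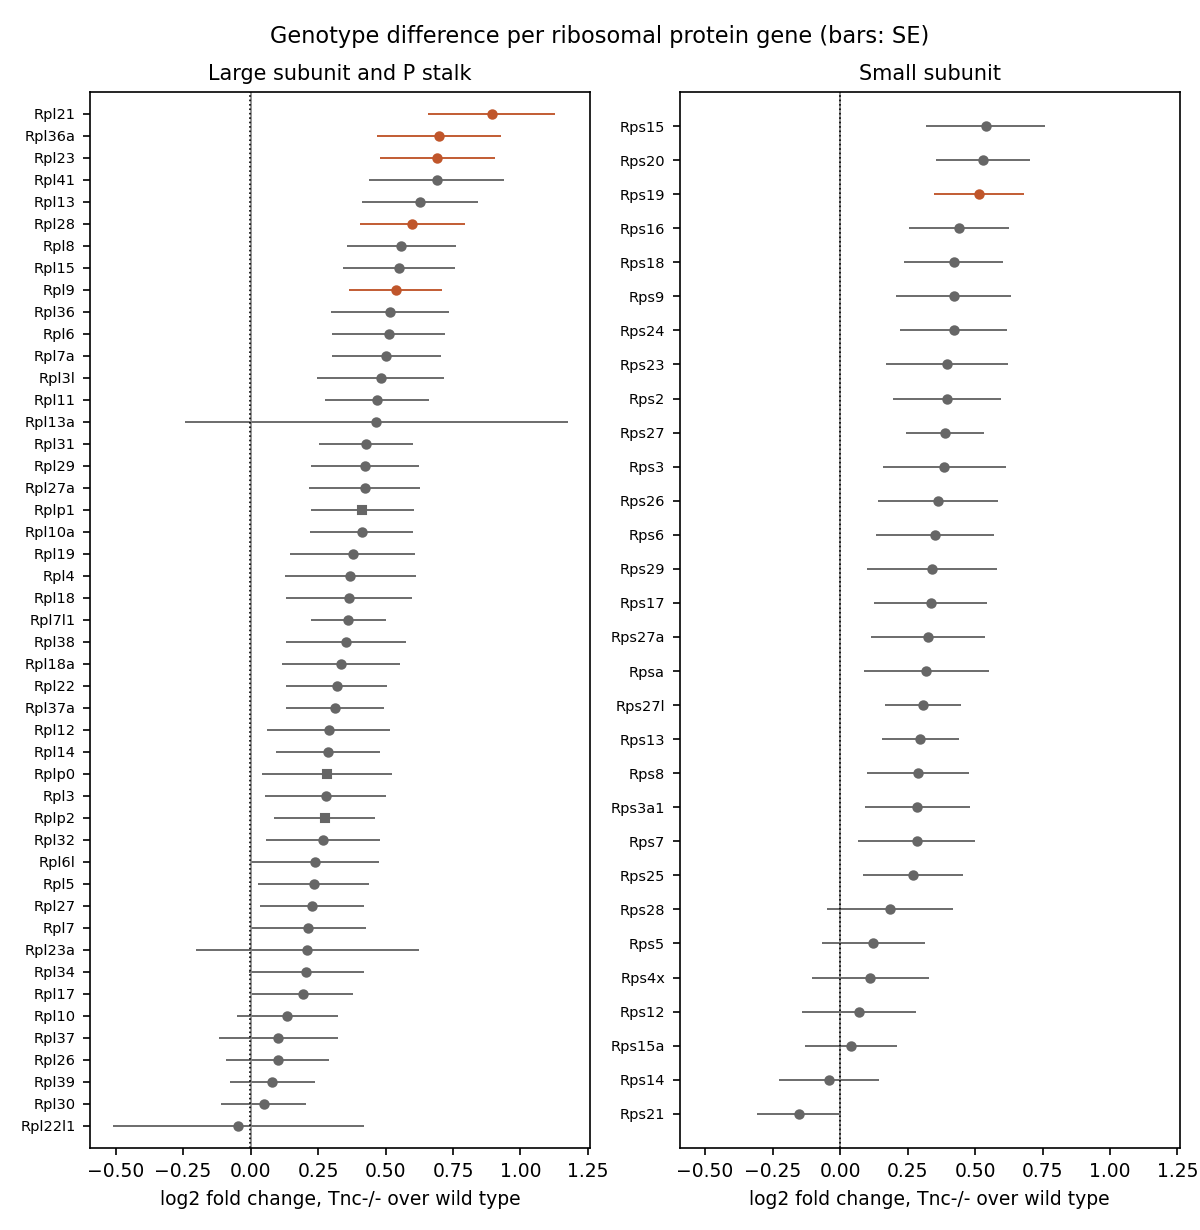
Log2 fold change of Tnc-/- over wild type for each ribosomal protein gene, with its standard error, for the large subunit and P stalk (left, stalk genes as squares) and the small subunit (right). Coloured points are the 6 members with an adjusted p under 0.05 by edgeR, a dotted line marks the median of all genes tested, and 74 of the 77 points lie above 0.

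The P stalk is a flexible arm of the large subunit, made of Rplp0 at its base and pairs of Rplp1 and Rplp2, that recruits the elongation factors. In the order of library numbers used from here on, Rplp0 was at 1767, 965 and 1026 CPM in wild type and at 1611, 1427, 1411 and 1648 CPM in Tnc-/-. Rplp1 stood at 990, 913 and 673 CPM in wild type and at 1190, 1057, 1033 and 1298 CPM in Tnc-/-. Rplp2 was at 317, 249 and 194 CPM and at 293, 279, 308 and 346 CPM. Only for Rplp1 were all Tnc-/- libraries above all of wild type, and none of the 3 passed edgeR's test: the log2 fold changes were 0.28 (SE 0.24, adjusted p = 0.403) for Rplp0, 0.41 (SE 0.19, adjusted p = 0.134) for Rplp1 and 0.27 (SE 0.19, adjusted p = 0.295) for Rplp2. Divided by the length of the messenger RNA, Rplp1 had the highest level of all members, 2048 CPM per kb, and Rplp0 the 4th highest, 1037 CPM per kb.

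In the small subunit 1 of 30 members was called higher (3.33%, against 10.3% of all genes), none was called lower and the median log2 fold change was 0.33. The called gene was Rps19, a protein needed for maturation of the small subunit whose loss causes Diamond-Blackfan anaemia in people. Its level was 310, 230 and 225 CPM in wild type and 382, 324, 351 and 398 CPM in Tnc-/-, with no overlap, and rose by 0.51 on the log2 scale (SE 0.17, edgeR adjusted p = 0.047). Rpsa, which also serves as a receptor for laminin, was the most abundant small subunit gene in CPM. It was at 1269, 732 and 752 CPM in wild type and at 1304, 1088, 1016 and 1175 CPM in Tnc-/-, where wild-type library 1 lay near the top of the Tnc-/- range. Rps2, at the entry of the messenger RNA channel, had means of 695 ± 179 and 915 ± 79.1 CPM (SD, n = 3 and 4). Rps6, the substrate of the S6 kinases, was at 613, 349 and 386 CPM in wild type and at 648, 525, 529 and 594 CPM in Tnc-/-. Rps3, at the same entry site and with a second role in DNA repair, was at 550 ± 177 and 719 ± 83.1 CPM. For Rpsa, Rps2, Rps6 and Rps3 wild-type library 1 was within the Tnc-/- range, the log2 fold changes were 0.32 to 0.40 and the edgeR adjusted p-values were 0.165 to 0.328.

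Rps14, whose single-copy loss marks the anaemia of the 5q- syndrome, showed little difference, with 922, 647 and 630 CPM in wild type and 703, 763, 633 and 752 CPM in Tnc-/-. Its log2 fold change was -0.04 (SE 0.19, edgeR adjusted p = 0.890). Rps21 had the lowest fold change of all members and was named after its value was seen: 228, 211 and 152 CPM in wild type and 176 to 179 CPM in all 4 Tnc-/- libraries, a log2 fold change of -0.15 (SE 0.16, adjusted p = 0.496). Neither gene passed the test.

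In the large subunit without the stalk, 5 of 44 members were called higher (11.4%, against 10.3% of all genes) and none lower, with a median log2 fold change of 0.36. With library totals or DESeq2 size factors 1 of the 44 was called (2.27%, against 5.35 and 8.81% of all genes called higher). The 5 called with TMM were the members with the largest called changes. In each of these 5 all Tnc-/- libraries were above all wild-type libraries. Rpl21 was at 132, 109 and 64.3 CPM in wild type and at 203, 170.5, 173 and 210.4 CPM in Tnc-/-, higher by 0.89 on the log2 scale (SE 0.23, edgeR adjusted p = 0.023). Rpl36a was at 136, 89.6 and 64.6 CPM in wild type and at 154, 156, 147 and 170.1 CPM in Tnc-/-, higher by 0.70 (SE 0.23, edgeR adjusted p = 0.049). Both were lowest in wild-type library 3, and the gap between groups was narrower for Rpl36a, whose wild-type library 1 was just under the lowest Tnc-/- library.

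Rpl23, one of the large subunit proteins that bind Mdm2 and thereby raise p53, was at 273, 192 and 145 CPM in wild type and at 323, 303, 320 and 367 CPM in Tnc-/-, higher by 0.69 (SE 0.21, edgeR adjusted p = 0.041). Rpl28 was at 282, 295 and 186 CPM in wild type and at 422, 333, 367 and 419 CPM in Tnc-/- (0.60, SE 0.19, adjusted p = 0.048). Rpl28 was the only one of the 6 in which wild-type library 2 was above library 1. Rpl9 was at 310, 210 and 225 CPM in wild type and at 385, 334, 337 and 386 CPM in Tnc-/- (0.54, SE 0.17, adjusted p = 0.047). The edgeR adjusted p-values of Rpl36a, Rpl28, Rpl9 and Rps19 were 0.047 to 0.049, so these calls were at the edge of the threshold. Rpl28 overlaps an exon of Ube2s on the opposite strand in GENCODE M21, and use of strand in the counting is not given in the sources used here, so reads from both genes cannot be told apart. The same holds for Rps2 with Snhg9, Rpl5 with Fam69a and Rpl22l1 with Gm33051.

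Other large subunit members with well known roles did not pass the test. Rpl4, which lines the exit tunnel of the new protein chain, was at 1082, 554 and 625 CPM in wild type and at 1057, 927, 906 and 1006 CPM in Tnc-/-, so that wild-type library 1 exceeded all of Tnc-/-. Rpl5 and Rpl11, which bind the 5S ribosomal RNA and hold Mdm2 under ribosomal stress, were unlike each other in their separation. Rpl11 was at 351, 281 and 206 CPM against 371, 367, 382 and 425 CPM, with no overlap (0.47, SE 0.19, edgeR adjusted p = 0.098), and Rpl5 was at 602, 352 and 419 CPM against 600, 511, 484 and 560 CPM, with overlap (0.23, SE 0.21, adjusted p = 0.419). Rpl10, which joins late in assembly near the peptidyl transferase centre, Rpl26, which also binds the messenger RNA of p53, and Rpl38, needed for patterning of the skeleton, had log2 fold changes of 0.14 (SE 0.19), 0.10 (SE 0.19) and 0.35 (SE 0.22).

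**Figure D3:**
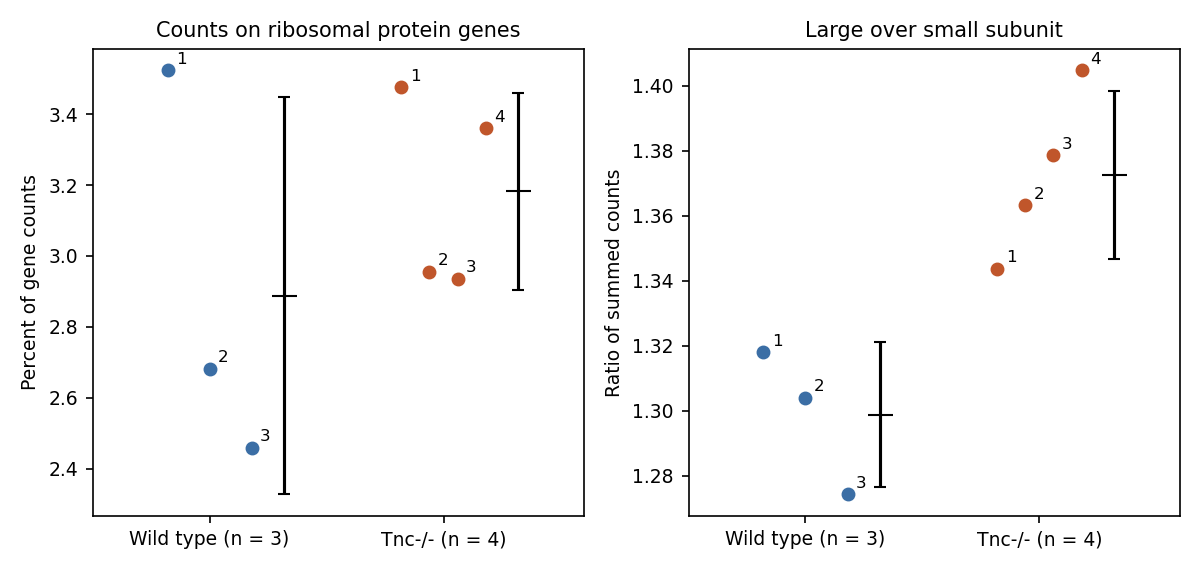
Left: percent of gene counts on the 77 ribosomal protein genes. Right: ratio of counts summed over the large subunit, P stalk included, to those of the small subunit. Numbered points are libraries, and bars are means with SD; the shares overlap between genotypes, while the ratio is 1.274 to 1.318 in wild type and 1.344 to 1.405 in Tnc-/- (both vertical axes start above 0).

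The balance of the subunits differed a little between the groups. Counts summed over the large subunit and the stalk were 1.318, 1.304 and 1.274 times those of the small subunit in wild-type libraries 1 to 3 and 1.344, 1.363, 1.379 and 1.405 times in Tnc-/- libraries 1 to 4. The ratio therefore did not overlap, with means of 1.30 ± 0.02 and 1.37 ± 0.03 (SD, n = 3 and 4), a difference of 0.07 that was chosen for description after its values were seen and was not tested. It also did not overlap when the 5 most abundant members, the stalk genes or the 6 called members were left out (means of 1.223 and 1.306, 1.097 and 1.166, and 1.249 and 1.307). A sum is led by abundant genes. The difference between the median log2 distances of large and small subunit members, in which each gene counts equally, was -0.04 ± 0.05 in wild type and 0.03 ± 0.03 in Tnc-/-, with overlap.

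To see which members departed from the common movement of the group, the libraries were also scaled to the ribosomal protein genes themselves, an alternative added after the data were seen. This brought the members' median to -0.006 and that of all genes to -0.39. Rpl21 then still stood higher in Tnc-/- (0.55, edgeR adjusted p = 0.033), and Rps21 and Rps14 were called lower, by -0.51 (SE 0.14, adjusted p = 0.028) and -0.39 (SE 0.12, adjusted p = 0.040). On this scale 2.96% of all genes were called higher and 23.5% lower. Rpl21 was the only member called in the same direction on both scales.

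The length of the messenger RNA had a different relation to the distance in each library. After the library's median was taken off, the Spearman correlation between a member's distance and its length was -0.54 in wild-type library 2, 0.46 in Tnc-/- library 1 and 0.25 in wild-type library 1, and between -0.11 and 0.12 in the other 4 (n = 77 genes, which share library and depth). In wild-type library 2 the median distance went from -0.16 in the 20 shortest members to -0.44 in the 19 longest. In wild-type library 3 it went from -0.58 to -0.45. Of the 2 low wild-type libraries, only library 2 was thus lowest in the longest members.

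Some ribosomal proteins have a paralog that takes their place in certain tissues, and the ratio of counts of paralog to partner does not depend on scaling of the library. Rpl3l, which replaces Rpl3 in skeletal muscle and heart, had 37.5, 48.7 and 30.5% of the counts of Rpl3 in wild type and 33.1, 62.1, 47.8 and 38.0% in Tnc-/-. It was highest in Tnc-/- library 2, the library with the highest summed plain CPM of skeletal muscle markers. That sum was 60135 CPM, against 41741 to 47774 CPM in the other Tnc-/- libraries and 34312 to 42169 CPM in wild type. The next highest percentage, 48.7%, was that of wild-type library 2, where the muscle sum was 34956 CPM. The relation of the percentage to muscle content was not tested. For Rpl3l the difference in the log2 ratio was 0.20 (exact two-sided permutation test, p = 0.514). Rpl22l1, which is made in excess where Rpl22 is lost, had 2.48, 4.60 and 1.56% of the counts of Rpl22 in wild type and 1.90, 2.51, 2.48 and 2.19% in Tnc-/-. The difference in the log2 ratio was -0.22 (exact permutation p = 0.686) and rested on 37 to 128 counts per library.

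Rps27l, a paralog of Rps27 that p53 induces, was at 21.02, 33.4 and 25.6% of Rps27 in wild type and at 25.6, 24.2, 25.8 and 24.1% in Tnc-/-. Rpl7l1 was at 8.86, 10.01 and 11.8% of Rpl7 in wild type and at 10.4, 11.4, 11.97 and 10.7% in Tnc-/-. Rpl6l, which GENCODE M21 lists as a processed pseudogene, was at 8.24, 6.73 and 7.03% of Rpl6 in wild type and at 5.80, 7.16, 6.31 and 5.69% in Tnc-/-. For these 3 pairs the groups overlapped, and the differences in the log2 ratio were -0.07, 0.13 and -0.23 (exact permutation p = 0.743, 0.286 and 0.171).

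Rpl39l, the testis paralog of Rpl39, is just under the threshold of level and no member, and its ratio did separate the groups. It had 79, 132 and 123 counts in wild type and 52, 50, 58 and 57 in Tnc-/-, or 1.84, 4.88 and 4.40% of Rpl39 against 0.945, 1.384, 1.801 and 1.274%. In edgeR the gene itself was called lower (-1.32, SE 0.43, adjusted p = 0.047), a call that was lost without wild-type libraries 2 and 3 and without any 1 library other than wild-type library 1. The difference in the log2 ratio was -1.36 (exact two-sided permutation p = 0.0571, the smallest that 35 splits allow; adjusted over the 6 pairs, 0.343). Wild-type library 1 was close to the Tnc-/- libraries and libraries 2 and 3, those with the high receptor background, were far above; the part of that background in the ratio was not tested.

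**Figure D4:**
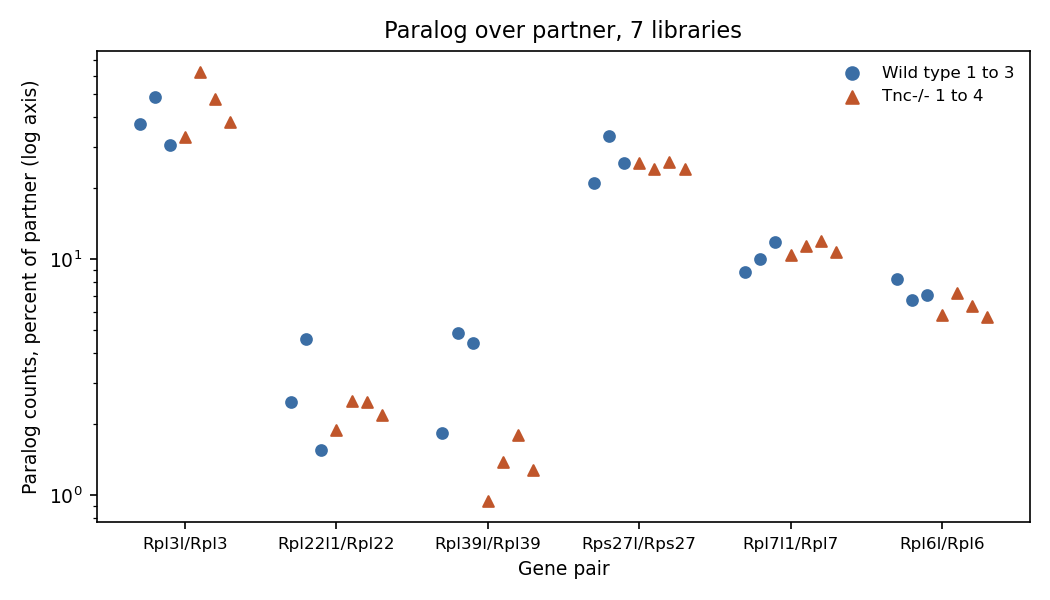
Counts of each paralog as percent of those of its partner, on a log axis, in wild-type libraries 1 to 3 (circles) and Tnc-/- libraries 1 to 4 (triangles). Only for Rpl39l over Rpl39 do the groups not overlap, at 1.84 to 4.88% in wild type and 0.94 to 1.80% in Tnc-/-.

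Some ribosomal proteins of every ribosome had few counts or none. Just inside the threshold were Rpl22l1 with a mean of 5.32 CPM and Rpl13a with 5.91 CPM, and just outside were Rpl39l with 4.67 CPM and Rps3a2 with 1.15 CPM. Rpl13a, a core protein of every ribosome, was at 10.3, 3.92 and 0.79 CPM in wild type and at 5.70, 5.24, 7.11 and 9.68 CPM in Tnc-/-, far under its neighbours in the subunit. In GENCODE M21 its exons overlap those of other genes on the same strand, Gm45713 among them. Reads that fit more than 1 gene, listed apart in the Tnc-/- files only, made up 11.4 to 11.6% of the reads there. Fau, which the name rule does not reach, encodes a small subunit protein as a fusion with a ubiquitin-like protein. It was at 492, 318 and 263 CPM in wild type and at 428, 354, 396 and 470 CPM in Tnc-/- (0.20, SE 0.23, edgeR adjusted p = 0.530). Rps10, like the core proteins Rpl24, Rpl35 and Rpl35a, was listed at 0 counts in all 7 libraries, while its pseudogene Rps10-ps2 held 14932 counts over the 7 libraries (Fau, Rps10, Rpl24, Rpl35, Rpl35a and Rps10-ps2 were named after their values were seen). Rps10-ps2 was at 136, 88.6 and 75.3 CPM in wild type and at 131, 104, 110 and 128 CPM in Tnc-/-, with wild-type libraries 2 and 3 lowest, as for the members. The 322 listed pseudogenes of these genes, Rps10-ps2 among them, held 0.054, 0.056 and 0.046% of the gene counts in wild type and 0.050, 0.042, 0.040 and 0.048% in Tnc-/-. Reads that align to more than 1 place were listed apart in the Tnc-/- files, so levels of members with near-identical copies, Rpl21 and Rpl9 among them, are uncertain.

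The other genes of translation, from lists drawn up with textbook knowledge, were set beside the members in the same edgeR fit, where 10.3% of all genes were called higher and 18.7% lower. Of 33 tested translation factors and other genes with a 5′ oligopyrimidine tract, 2 were called higher and none lower, with a median log2 fold change of 0.31. Eif4g1, the scaffold of the cap-binding complex, was at 430, 308 and 301 CPM in wild type and at 510, 570, 579 and 585 CPM in Tnc-/- (0.70, SE 0.17, edgeR adjusted p = 0.020). Hnrnpa1, an RNA-binding protein whose own message has the tract, was at 196, 137 and 124 CPM against 243, 203, 226 and 228 CPM (0.56, SE 0.18, adjusted p = 0.045). In both genes the groups did not overlap. With the receptor background as a covariate or with the replicate block edgeR called none of the 33, and it called none without wild-type libraries 2 and 3, at a median of -0.096, and leaving out 1 library gave 28 calls without wild-type library 1 and 0 or 1 otherwise.

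Factors of ribosome biogenesis, which make and process ribosomal RNA in the nucleolus, were called higher in 13 of 44 genes (29.5%) and lower in 1, with a median of 0.40. Fbl, the methyltransferase fibrillarin, was at 36.5, 28.8 and 32.01 CPM in wild type and at 66.2, 63.6, 53.9 and 64.5 CPM in Tnc-/- (0.93, SE 0.14, edgeR adjusted p = 0.007). Nolc1, a chaperone of nucleolar particles, was at 41.0, 27.2 and 27.9 CPM against 60.8, 58.2, 56.4 and 58.3 CPM (0.87, SE 0.17, adjusted p = 0.009). For both, unlike most members, wild-type library 1 was well below the lowest Tnc-/- library. The gene called lower was Mdn1, a remodelling ATPase of the large subunit precursor, at -0.67 (adjusted p = 0.047; named after its value was seen). Without wild-type libraries 2 and 3 the list had 3 genes called higher and none lower, with a median of 0.19. Leaving out 1 library gave 31 genes called higher without wild-type library 1 and 3 to 7 otherwise. With library totals 6 were called higher and 2 lower (median 0.17), with the replicate block 3 were called higher, and with the receptor background as a covariate none was called by edgeR (median 0.11).

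Of 31 tested genes of the mTOR and S6 kinase pathway, 8 were called higher (25.8%) and none lower, but the median was 0.05. Larp1, which binds the oligopyrimidine tract, was at 119, 94.9 and 82.2 CPM in wild type and at 146, 147, 160 and 147 CPM in Tnc-/- (0.60, SE 0.15, edgeR adjusted p = 0.018). Mtor was at 49.2, 46.2 and 46.3 CPM against 65.3, 64.3, 68.7 and 57.1 CPM (0.43, SE 0.12, adjusted p = 0.025). Messenger RNA levels of a kinase say nothing of its activity, which was not measured. With library totals in place of TMM, 1 gene of this list was called higher and 5 lower (5.35 and 25.5% of all genes). Without wild-type libraries 2 and 3 edgeR called 0 higher and 1 lower, and leaving out 1 library gave 14 called higher without wild-type library 1 and 0 to 3 otherwise. It called none of the 31 with the receptor background as a covariate or with the replicate block.

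Mitochondrial ribosomal proteins, encoded in the nucleus for a separate ribosome, were called higher in 13 of 73 tested genes (17.8%) and lower in none, with a median of 0.30. Mrps15 was at 38.7, 34.2 and 33.6 CPM in wild type and at 48.3, 56.9, 47.7 and 53.6 CPM in Tnc-/- (0.54, SE 0.13, edgeR adjusted p = 0.017). Mrpl53 had 0 counts in all wild-type libraries and 43.1 to 49.1 CPM in Tnc-/-, at least 251.3-fold higher against a floor of 3 counts per library; with Mrpl53 at that bound the list's median was again 0.30. EdgeR called 1 of the 73 without wild-type libraries 2 and 3, at a median of 0.098, and leaving out 1 library gave 46 calls without wild-type library 1 and 1 to 7 otherwise. With library totals there was 1 call (median 0.07), with the replicate block 2, with upper-quartile scaling 4, with DESeq2 size factors 7 and with the receptor background as a covariate 1 (median 0.02). The complete absence of Mrpl53 goes along with the form of the files, from which genotype cannot be told apart.

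Summed markers of erythroid and marrow myeloid cells and of dividing cells, in plain CPM, were higher in Tnc-/-. In the edgeR fit with all libraries, 10.3% of all genes were called higher and 18.7% lower. Summed erythroid markers (13 of 14 found, Alas2 at 0 counts in every library) ranged from 5449 to 9333 CPM in wild type and from 12251 to 25417 CPM in Tnc-/-, with 7 of 12 tested genes called higher and none lower by edgeR. Neutrophil and marrow myeloid markers ranged from 3448 to 6554 CPM and from 6646 to 11756 CPM, with 10 of 14 called higher. Cell cycle genes ranged from 424 to 766 CPM and from 824 to 1466 CPM, with 8 of 13 called higher. In all 3 lists wild-type library 1 was the highest of wild type, as it was for the summed share of the members, and no group overlapped the other. When wild-type libraries 2 and 3 were left out, 1 of 12 erythroid, 1 of 14 myeloid and 0 of 13 cell cycle genes were called by edgeR, at medians of 0.69, 0.53 and 0.60 in place of 1.19, 1.14 and 1.02. Without wild-type library 3 alone the calls were 1, 2 and 0 (3.27% of all genes called higher). Without wild-type library 1 alone they were 11, 14 and 12 (24.3% of all genes called higher). With the receptor background as a covariate edgeR called none of the 12 erythroid or 14 myeloid genes, at medians of 0.54 and 0.23 (1.10% of all genes called higher). B cell markers overlapped, with 270.3 to 302 CPM in wild type and 258 to 414 CPM in Tnc-/-, and 2 of 9 tested genes were called higher. Endothelial markers were lower in Tnc-/- in plain CPM, at 615 to 630.3 CPM in wild type and 438 to 519 CPM in Tnc-/-. TMM factors were 1.01, 1.15 and 1.15 in wild type and 0.91 to 0.96 in Tnc-/-. TMM scaling thus lowers the wild-type sums and raises those of Tnc-/-, and the separation holds for plain CPM only. Of the endothelial markers 2 of 6 were called lower, against 18.7% of all genes. Macrophage markers ranged from 2095 to 3535 CPM in wild type and from 2638 to 3187 CPM in Tnc-/-, with 0 of 10 called. Tendon fibroblast markers (37721 to 53863 and 34783 to 56730 CPM) and skeletal muscle markers were at high levels in every library, as a whole joint should show. Of the muscle markers 3 of 16 were called higher and none lower, at a median of 0.65, and of the tendon markers 2 of 11 were called lower and none higher, at a median of -0.01. With wild-type libraries 2 and 3 left out, edgeR called none of the B cell, macrophage, muscle and tendon markers, at medians of 0.16, -0.11, 0.36 and -0.33, and 1 endothelial marker, lower. With wild-type library 1 left out instead, 8 of 9 B cell, 7 of 10 macrophage and 13 of 16 muscle markers were called higher, against 24.3% of all genes. In that fit 1 tendon marker was called lower, and endothelial markers had 1 called higher and 2 lower. Leaving out wild-type library 3 or any 1 Tnc-/- library left no tendon marker called, and B cell markers had 0 or 1 call without any 1 library other than wild-type library 1. The part of these cells in the members' levels was not tested.

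**Figure D5:**
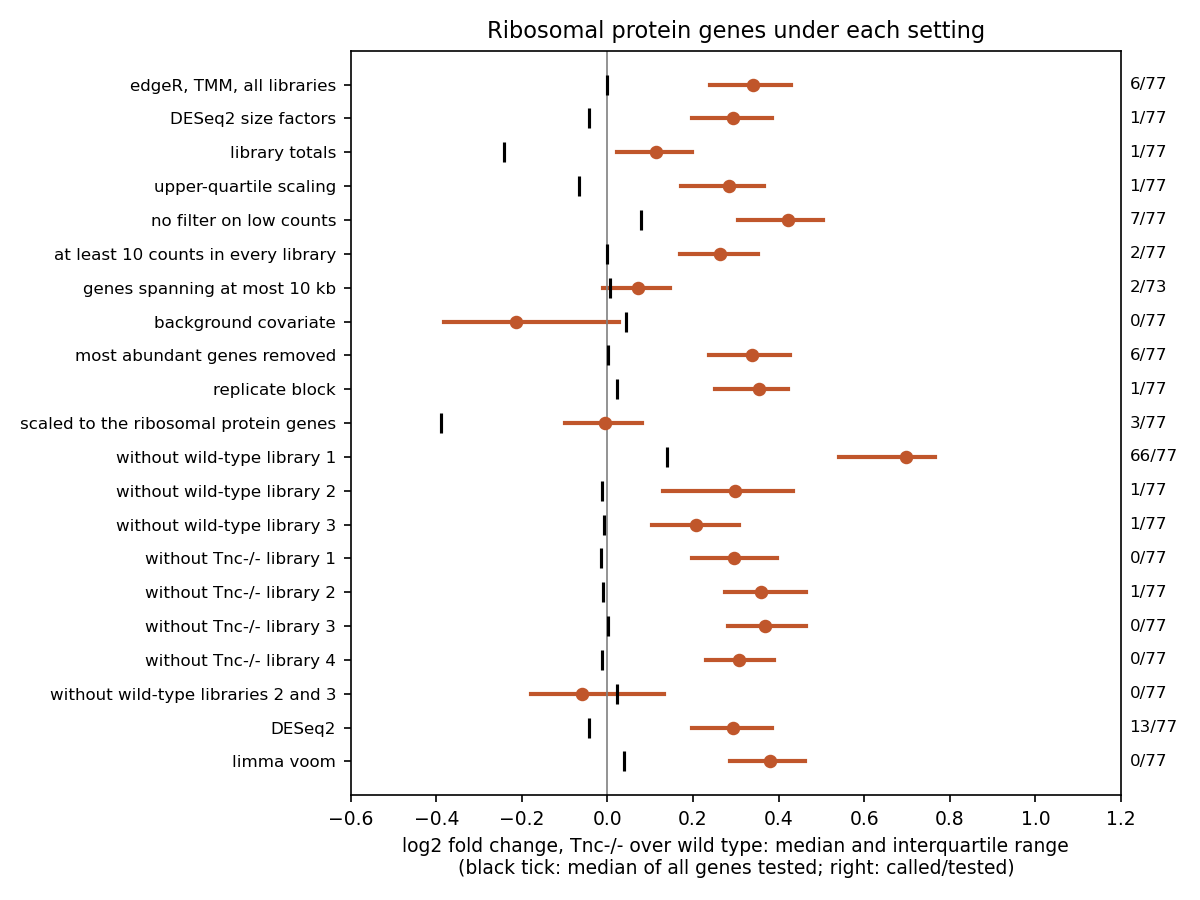
Median (points) and interquartile range (bars) of the log2 fold change of the ribosomal protein genes under each way of testing, with the median of all genes tested as a black tick and the number of members called of those tested on the right. The median is 0.34 in the first row, 0.70 without wild-type library 1, -0.059 without wild-type libraries 2 and 3 and -0.21 with the receptor background as a covariate.

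Scaling moved the median of the members and that of all genes by about the same amount. With DESeq2's size factors or upper-quartile scaling in edgeR, 1 member was called, Rpl21 both times, at medians of 0.29 and 0.28, with all genes at -0.04 and -0.07 (8.81 and 7.58% of all genes called higher). With library totals Rpl21 was again the one call (5.35%), at a median of 0.11 against -0.24 for all genes. With no filter on low counts 7 were called (7.24%), with at least 10 counts in every library 2 (9.94%), without the most abundant genes 6 (10.2%) and with replicate numbers as a block 1, Rpl21 (4.96%). DESeq2 itself called 13 members higher and none lower, among them all 6 called by edgeR, against a background of 12.3% called higher. Among genes spanning at most 10 kb, fitted alone, the members' median was 0.07, with Rpl21 called higher and Rps21 lower (4.42 and 9.07% of these genes). With the receptor background of each library as a covariate no member was called by edgeR, 4 had an unadjusted p under 0.05 (5.19%, against 18.5% of all genes), and the median was -0.21 (1.10% of all genes called higher). This background was higher in every wild-type library than in any Tnc-/- library, so the fit cannot well tell it apart from genotype. Limma voom called none (4.09% of all genes called higher), with 26 members at an unadjusted p under 0.05 (33.8%, against 32.3% of all genes), and Bonferroni adjustment of edgeR's p-values left none (0.101%).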

How the data were processed

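The authors deposited raw read counts per gene, 1 table per library. Per the submitters' processing notes, the tools named are FastQC 0.11.9, HISAT2 2.2.1, HTSeq 2.0.2 and DESeq2 1.38.3 and the build is GRCm39 (mm39); the annotation and the strand setting are not given in the sources used here. Groups follow the labelled genotype. No column was left unmapped (0 columns). In the Tnc-/- tables, rows naming no gene held 30.1 to 32.7% of the listed reads and were left out.

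Counts of the 56854 identifiers in all files were compared between genotypes in edgeR 4.0.16 under R 4.3.3 (filterByExpr, TMM, robust quasi-likelihood F test, genotype as the only term), with Benjamini-Hochberg adjustment over all 17791 genes tested. Levels of single genes are TMM-scaled CPM. The member threshold, the summed levels of cell type markers and the summed receptor levels used plain CPM. The fits were tested on simulated data. Paralog ratios used log2 counts plus 1 and exact two-sided permutation tests (2 times the smaller one-sided p) over 35 splits. Alternatives used DESeq2 1.42.0 and limma 3.58.1. Spans, messenger lengths (shortest principal transcript) and overlaps came from GENCODE M21 (GRCm38), and promoter windows from RefSeq.

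Members, lists and tests were chosen with earlier results of these data known. Named were the stalk genes, paralogs, the 5 largest called changes in each direction, the 5 highest levels, the 2 genes on each side of the threshold, 11 with well known roles, and the 2 genes with the smallest p of each companion list. The replicate numbers did not pair the libraries. Pairs of libraries of 1 genotype all differed beyond sampling noise.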

Additional observations from a re-analysis of the deposited data

Results flagged for a closer look

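Larp1 was at 160 CPM in Tnc-/- library 3 and at 146 to 147 CPM in the other Tnc-/- libraries, a gap of 0.927 of the group's whole range, which is past the 95% limit that Dixon gave for so few samples. Wild type was at 82.2 to 119 CPM. Of 46 values looked at in this way, chance alone sets apart about 1 in 20.

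In the Tnc-/- tables, reads listed as aligned to more than 1 place, which enter no gene's count, made up 6.67 to 8.32% of the listed reads; the wild-type tables hold gene rows only.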

How the results depend on the processing

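The 77 members gave 6 calls at a median of 0.34. Calls were 1 with library totals, DESeq2 size factors, the replicate block or upper-quartile scaling (for the block, Rpl21 again), 2 with at least 10 counts in every library or among genes spanning at most 10 kb, 3 with scaling to the members, 13 with DESeq2, and 0 with the background covariate, limma voom or Bonferroni adjustment. Leaving out 1 library gave 0 to 66 calls, medians of 0.21 to 0.70, differences in the share of counts of 0.079 (without wild-type library 3) to 0.61 points (without wild-type library 1), 0.19 without wild-type library 2 and 0.20 without Tnc-/- library 1, and in the pseudogene share of -0.010 to -0.005 points. Without wild-type libraries 2 and 3 there were 0 calls, a median of -0.059 and a share difference of -0.34 points. The median was 0.071 among genes of at most 10 kb, -0.21 with the covariate and -0.0058 with scaling to the members. Per TMM-scaled library size the share differed by 0.73 points and the pseudogene share by 7.76e-05 points. Replicate numbers did not pair the libraries (correlations of -0.04, 0.06 and -0.02; 1 of 3 correlated best with its own number).

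Some named members changed sign, among the 6 called ones only Rpl36a. With the background covariate the values were -0.48 (Rplp0), -0.19 (Rplp2), -0.10 (Rpl3l), -0.025 (Rpl7l1), -0.59 (Rpl6l), -0.0025 (Rpl36a), -0.38 (Rpsa), -0.43 (Rpl4), -0.17 (Rps2), -1.15 (Rpl13a), -0.33 (Rps6), -0.25 (Rps3), -0.38 (Rpl5), -0.37 (Rpl10), -0.40 (Rpl26) and -0.094 (Rpl38). Without wild-type libraries 2 and 3 they were -0.22 (Rplp0), -0.055 (Rplp2), -0.31 (Rpl6l), -0.15 (Rpsa), -0.16 (Rpl4), -0.58 (Rpl13a), -0.10 (Rps6), -0.059 (Rps3), -0.17 (Rpl5), -0.20 (Rpl10) and -0.22 (Rpl26). Scaled to the members, which by construction puts their median near 0 and so many of them below it, they were -0.046 (Rplp0), -0.076 (Rplp2), -0.10 (Rps27l), -0.0074 (Rpl7l1), -0.075 (Rpl6l), -0.015 (Rpsa), -0.12 (Rpl5), -0.22 (Rpl10) and -0.27 (Rpl26). Among genes of at most 10 kb they were -0.01 (Rplp2), -0.0059 (Rps27l), -0.024 (Rpl6l), -0.044 (Rpl5), -0.15 (Rpl10) and -0.19 (Rpl26), and with library totals -0.093 (Rpl10) and -0.13 (Rpl26). Rpl22l1 was at 0.12 with voom, 0.035 without a filter, 0.11 with the replicate block, and -0.41 to 0.35 over the single libraries left out (0.14 and 0.35 without wild-type library 1 and 2). Rps14 was at 0.033 without a filter, 0.25 without wild-type library 1 and 0.01 without Tnc-/- library 3, and Rps21 was at 0.061 without wild-type library 1. Over single libraries left out, Rpl26 was at -0.066 (without wild-type library 2) to 0.38, Rpl13a at -0.037 (without wild-type library 3) to 1.66 (without wild-type library 1) and the log2 ratio of Rps27l to Rps27 at -0.23 to 0.10 (without wild-type library 2), where that of Rpl22l1 to Rpl22 was 0.18. The cause of the other changes was not tested. Members near the threshold rested on few counts (13 for Rpl13a in wild-type library 3), and their standard errors were the widest (0.71 for Rpl13a).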
